A study of Mus musculus with 9 samples.

Results

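The corticotropin-releasing hormone (CRH) and urocortin system of mouse islets was described across 3 sorted endocrine subsets. The 7 genes were chosen by name as the peptides (Ucn3, Ucn2, Ucn and Crh), the receptors (Crhr1 and Crhr2) and the binding protein (Crhbp), out of 55536 annotated genes. Of the 7, 4 had at least 1 count in any library, and 2, Ucn3 and Crhr2, had enough counts to be tested. Ucn3 was a beta-enriched transcript, with a smaller amount in the alpha-enriched subset, and Crhr2 was found almost entirely in the delta-enriched subset. Ucn, Crh and Crhbp had no count in any of the 9 libraries.

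RNA was sequenced from islets of C57B/L6 mice aged 12 weeks, which were picked by hand, kept overnight in culture, dispersed and sorted by FACS. All 3 subsets came through these steps and were separated by gate: the alpha-enriched cells were CD24low and CD71-, the beta-enriched cells CD24low and CD71+, and the delta-enriched cells CD24high, with 3 libraries each. CD24 is a surface glycoprotein and CD71 is the transferrin receptor. The labels do not say whether the 3 libraries of a subset came from separate mice or sorts, so the p-values measure only the spread between these libraries, which may be technical.

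CRH and the urocortins are related peptide hormones. CRH, the hypothalamic peptide that starts the pituitary and adrenal stress response, acts mainly through CRHR1, and urocortin 2 and urocortin 3 act selectively through CRHR2, while urocortin 1 binds both receptors. Both receptors belong to the secretin family of G protein-coupled receptors and raise cyclic AMP. In mouse islets, urocortin 3 is made by mature beta cells, stored and released with insulin, and acts on CRHR2 of delta cells to promote the release of somatostatin.

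Ucn3 (ENSMUSG00000044988) lies on the minus strand of chromosome 13, from 3940688 to 3945349 in GRCm38, and has 1 annotated transcript with 2 exons. Crhr2 (ENSMUSG00000003476) lies on the minus strand of chromosome 6, from 55090049 to 55133016. No other annotated gene overlapped any of the 7. The promoters of these 2 genes are shown because they are the members whose RNA differed between subsets. RefSeq (GRCm38.p6) held promoter windows for 5 of the 7 genes, each with 250 bases before and 50 after the start site, and Ucn2 and Crh were not in the table. The Ucn3 window is chr13:3945300-3945599 and the Crhr2 window is chr6:55132967-55133266, both on the minus strand and written 5′ to 3′. Capitals mark TAAT, the core letters of homeodomain sites, on either strand in Ucn3, and TATAAA and the E-box letters CANNTG in Crhr2.
Ucn3: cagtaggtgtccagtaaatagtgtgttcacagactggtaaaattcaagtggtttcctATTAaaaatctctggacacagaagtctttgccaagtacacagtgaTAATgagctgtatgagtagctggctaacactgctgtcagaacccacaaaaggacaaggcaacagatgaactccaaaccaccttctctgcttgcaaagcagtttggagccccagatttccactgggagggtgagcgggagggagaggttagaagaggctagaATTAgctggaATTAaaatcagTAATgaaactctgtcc
Crhr2: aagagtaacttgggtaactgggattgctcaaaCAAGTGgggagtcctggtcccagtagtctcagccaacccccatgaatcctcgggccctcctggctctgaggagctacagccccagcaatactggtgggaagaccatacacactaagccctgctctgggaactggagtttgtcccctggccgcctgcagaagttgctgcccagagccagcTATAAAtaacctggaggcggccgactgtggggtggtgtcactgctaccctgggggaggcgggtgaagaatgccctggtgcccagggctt

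The Ucn3 window held 5 matches to TAAT on either strand, at positions -193, -148, 14, 24 and 35 from the start site, where 58% of 32851 promoters held at least 1. Its E-box matches, at -206 and -87 and not in capitals, were 2 in number. The Crhr2 window held TATAAA at -39, a match present in 13.6% of promoters, and 1 E-box at -218, a motif present in 72.3%. It had no TAAT. The letters TGACGTCA of the cyclic AMP response element, present in 1.79% of promoters, were in the Ucn window at -44 and in none of the other 4 windows. TGCTGA, the half-site letters of MAF factors, was absent from the Ucn3 and Crhr2 windows and was present in 19.5% of all promoters. None of the motifs overlapped within the 2 printed windows. These matches describe the letters only, and nothing in the libraries measured binding.

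Depth ran from 5663141 to 9529920 expected counts per library. Ribosomal and 7S RNA took 6.13% to 10.3% of counts in 8 libraries and 41.5% in beta replicate 2. The summed level of the 9 alpha cell markers was 83260 to 103000 CPM (counts relative to the library size) in the alpha-enriched libraries. It was 884 to 1138 in the beta-enriched and 2272 to 6585 in the delta-enriched ones. Gcg, the glucagon gene on this list, averaged 89390 ± 9891, 393 ± 136.5 and 4380 ± 2159 CPM (± SD) in the same order. The 7 delta cell markers summed to 15610 to 21990 CPM in the delta-enriched libraries and to at most 250.5 elsewhere, and the 14 mature beta cell genes to 56080 to 67310 CPM in the beta-enriched libraries and at most 8098 elsewhere. Endothelial markers summed to 1.13 to 4.50 CPM and immune markers to 0.546 to 3.8, with Plvap, Ptprc, Adgre1 and Cd3e at 0 in all libraries and none of either list testable. All 9 alpha cell markers were called against beta and against delta as higher in alpha, and in beta against delta 1 was higher and 6 lower. Over all tested genes, 14.8% were called higher and 11.9% lower in beta against alpha, and 15.4% and 15.3% in beta against delta. In alpha against delta, 11% were called higher and 13.3% lower. The 12 acinar markers summed to 50 to 292.4 CPM in alpha-enriched libraries, 16.6 to 53.1 in beta-enriched and 187.6 to 2262 in delta-enriched ones. Of the 11 acinar markers tested, 1 was lower in beta than in alpha, 2 in beta than in delta and 1 in alpha than in delta. Of the 4 duct markers tested, 1 was higher and 2 lower in beta against alpha, 1 and 1 in beta against delta, and 1 and 1 in alpha against delta. The counts were 0 and 1, 0 and 2, and 1 and 0 for the 2 tested mesenchymal and smooth muscle markers, and 4 and 0, 2 and 3, and 1 and 3 for the 6 tested neuron and Schwann cell markers, whose Snap25 and Tubb3 endocrine cells also express.

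Among the peptide genes, Ucn3 was the one with a clear level. Ucn3 had 1416, 1435 and 1209 counts in the beta-enriched libraries, 70, 65 and 68 in those enriched for alpha cells, and 0, 4 and 37 in those enriched for delta cells. In CPM with TMM scaling, which allows for library composition, these were 181.8, 245.9 and 199.5 in beta, 7.98, 8.19 and 9.59 in alpha, and 0, 0.605 and 4.75 in delta. The subsets did not overlap: every beta-enriched library was above every alpha-enriched one, and these in turn were above every delta-enriched one. Over all tested genes, 45.5% did not overlap between beta and alpha, 42.6% between beta and delta, and 36.1% between alpha and delta.

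**Figure D1:**
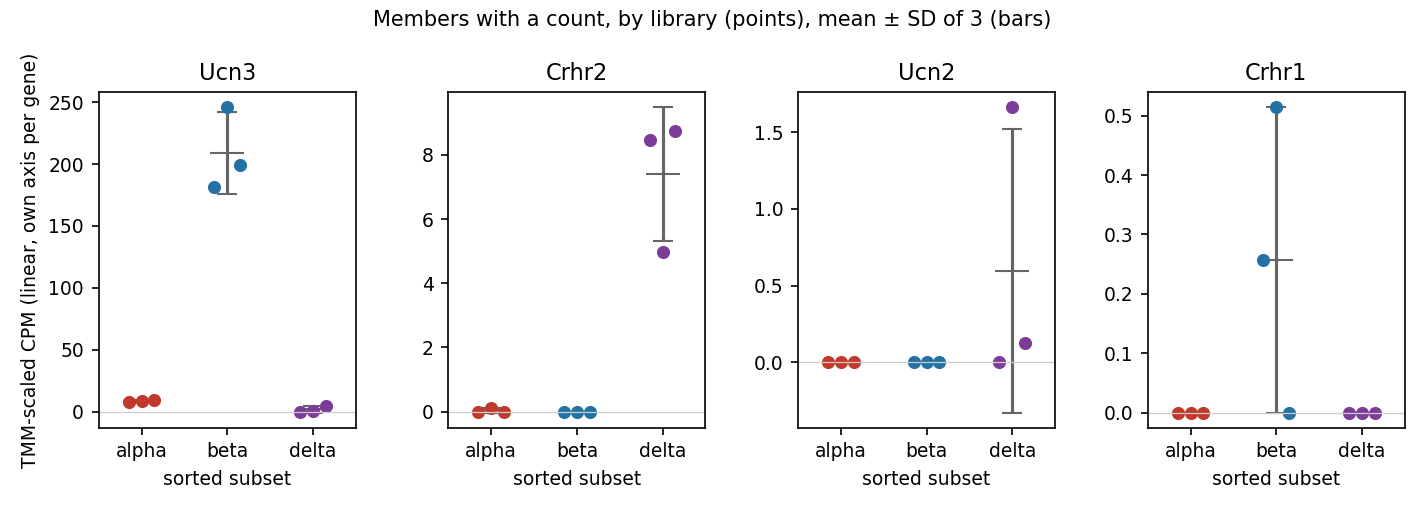
Level of the 4 genes with any count in each library. The vertical axes are TMM-scaled CPM on a linear scale that differs between genes, points are single libraries of the alpha-, beta- and delta-enriched subsets, and bars give mean ± SD of 3. Ucn3 was high in beta (181.8 to 245.9 CPM), Crhr2 was seen in all delta-enriched libraries (4.99 to 8.74 CPM), and Ucn2 and Crhr1 stayed at or under 1.66 CPM.

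Mean Ucn3 was 209 ± 33.1 CPM in beta, 8.59 ± 0.881 in alpha and 1.79 ± 2.59 in delta (± SD, n = 3), where alpha, beta and delta stand for the enriched subsets. The pooled counts gave a level 24.2-fold higher in beta than in alpha (95% counting interval 21 to 28). The fitted log2 fold change was 4.61 (SE 0.563, edgeR adjusted p = 0.00109). Against delta, the beta level was 109-fold higher (80.4 to 153), with a log2 fold change of 6.79 (SE 0.682, edgeR adjusted p = 0.00035). In bulk libraries such as these, fewer cells of a type and less RNA per cell cannot be told apart.

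Alpha stood above delta in Ucn3 by a pooled ratio of 4.52 (3.22 to 6.48), but the difference did not pass the test (log2 fold change 2.19, SE 0.777, edgeR adjusted p = 0.0944). Delta replicate 3 carried 37 of the 41 delta counts. Without it, the alpha to delta difference was 4.82 and passed (edgeR adjusted p = 3.22e-06), and the beta to delta difference was 9.43. An exact permutation test of 3 libraries against 3 cannot go below p = 0.1, and each of the 3 Ucn3 comparisons gave that value.

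The delta library with most Ucn3 also had most insulin RNA. Ins2 was at 65.3, 118 and 390 CPM in delta replicates 1, 2 and 3, and Ins1 was at 40.3, 58.7 and 197. The acinar markers summed to 215, 188 and 2262 CPM in the same order. All these genes were thus highest in replicate 3. The part that RNA of beta or acinar cells has in the Ucn3 counts of that library was not tested.

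Ucn3 was an abundant transcript in beta and a minor one elsewhere. In TPM, a unit that allows for gene length, it stood at 69.4, 79.9 and 101 in the beta-enriched libraries, with a mean of 83.4 ± 16.1. That level had rank 229 among the 15343 protein-coding genes with a TPM above 0 in beta. In alpha it had 3.66 ± 1.12 TPM and had rank 7571 of 16116, and in delta it had 0.717 ± 1.05 TPM and had rank 11275 of 15384.

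Genes of mature beta cells gave a yardstick for the Ucn3 seen outside the beta-enriched subset. As a percent of its mean CPM in beta, Ucn3 was at 3.81%, 3.91% and 4.59% in the alpha-enriched libraries. The median of 14 mature beta cell genes in the same libraries was 11.7%, 8.2% and 10.2%, and 14, 11 and 14 of the 14 lay above Ucn3. Ucn3 was therefore at the low end of the list in alpha. Ins1, the insulin gene, averaged 8.25% in alpha, and Ins2 averaged 8.96%. Closest to the 4.11% of Ucn3 were Glp1r, the receptor of glucagon-like peptide 1, at 4.71%, Slc2a2, the glucose transporter GLUT2, at 4.82% and Mafa, a transcription factor of mature beta cells, at 5.62%. Nkx6-1, a beta cell transcription factor, was at 18.7%. Slc30a8, the zinc transporter of the granules, was at 135% in alpha and was not called between beta and alpha.

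In delta, Ucn3 was at 0%, 0.289% and 2.27% of its beta mean. The list medians were 1.51%, 1.98% and 3.27%, and 14, 13 and 8 of the 14 genes lay above Ucn3. The mean for Ucn3, 0.854%, lay beside those of Ins2 (0.737%), Mafa (0.808%), Slc2a2 (0.87%) and Ins1 (0.885%). Pdx1, a transcription factor shared by beta and delta cells, was at 53.9%, and Iapp, which encodes amylin, was at 37.5%. Nkx6-1 was at 6.1%.

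**Figure D2:**
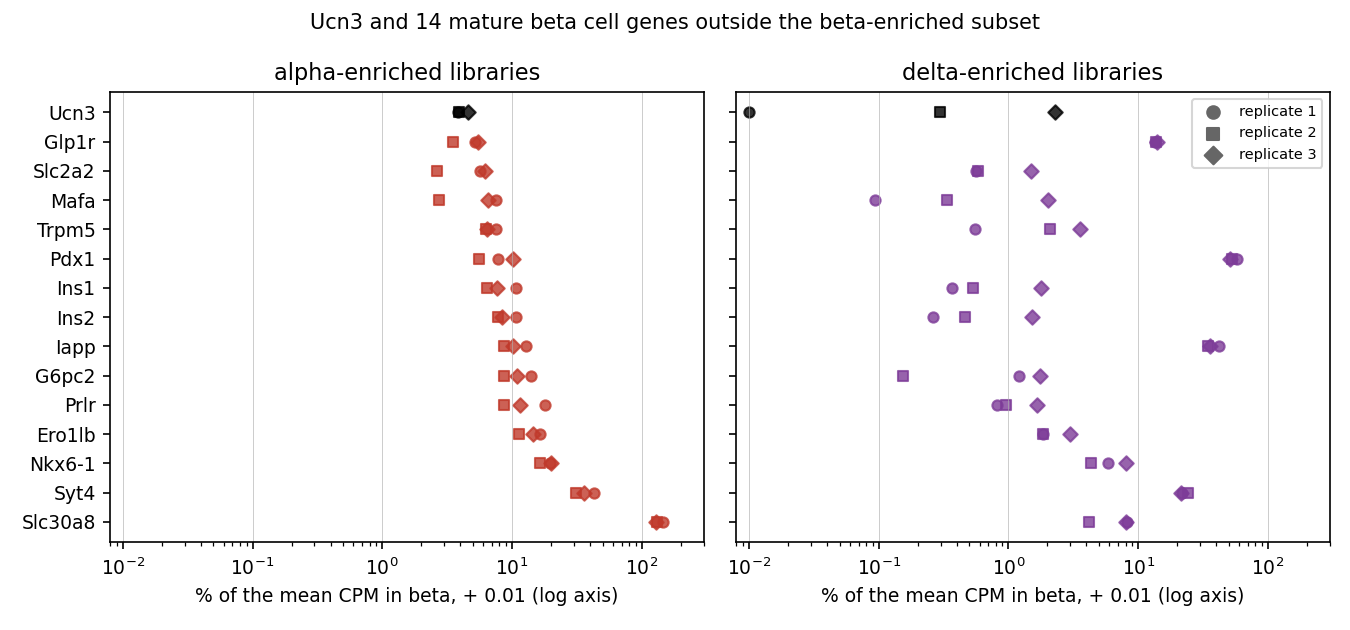
Ucn3 (black) and 14 mature beta cell genes in alpha- and delta-enriched libraries, as a percent of each gene's mean CPM in beta. The horizontal axis is logarithmic with 0.01 added, and the circle, square and diamond are replicates 1, 2 and 3. Ucn3 lay between 3.81% and 4.59% in alpha and between 0% and 2.27% in delta.

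These 14 genes were chosen for the beta cell, so their direction is not independent evidence. Of the 14, 13 were higher in beta than in alpha with 0 lower (median log2 fold change 3.37, against -0.0187 over all tested genes). The 0 became 1 without delta replicate 2, with no filter on low counts or with only these 2 subsets fitted. All 14 were higher in beta than in delta (median 5.52, against -0.0234). In alpha against delta, 10 were higher and 3 lower (median 2.56, against -0.0105), and 6 were higher with only these 2 subsets fitted. Over all tested genes, 14.8% were higher in beta than in alpha and 15.4% higher in beta than in delta. In alpha against delta these shares were 11% higher and 13.3% lower.

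The other peptides were at or near 0. Ucn2 had 0, 11 and 1 counts in the delta-enriched libraries and 0 in the other 6, so 1 library held 11 of its 12 counts. Delta replicate 2 stood at 1.66 CPM, replicate 3 at 0.129 and replicate 1 at 0. The gene was too low for the test, and with the filter on low counts removed its edgeR adjusted p was 0.108 against beta and 0.101 against alpha. Ucn (ENSMUSG00000038676, chromosome 5, 31138063 to 31138829) and Crh (ENSMUSG00000049796, chromosome 3, 19693401 to 19695396) had 0 counts throughout. A count of 0 over 3 libraries allows up to 0.126 CPM in alpha, 0.152 in beta and 0.138 in delta, taking 3 counts as the limit. Ucn2 (ENSMUSG00000049699) has a single annotated exon on chromosome 9, from 108986010 to 108987164.

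Of the receptors, Crhr2 was the one with a clear signal. It had 62, 33 and 68 counts in the delta-enriched libraries, 0, 0 and 0 in the beta-enriched ones, and 0, 1 and 0 in the alpha-enriched ones. The delta levels were 8.47, 4.99 and 8.74 CPM, a mean of 7.40 ± 2.09 (n = 3), and the lone alpha count was worth 0.126 CPM. Every delta-enriched library was above all 6 others.

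Crhr2 was at least 49.2-fold lower in beta than in delta, taking 3 counts over the beta-enriched libraries as the limit (edgeR adjusted p = 1.21e-05). Delta stood above alpha by a ratio of 179, with a 95% counting interval of 31.6 to 7100 that reflects the single alpha count (edgeR adjusted p = 1.99e-05). The fitted alpha to delta log2 fold change was -6.97 (SE 0.865), and -8.73 without alpha replicate 2, which held that count. With that library left out, alpha had no Crhr2 count, so -8.73 is not a measured size. Beta and alpha were both under the limit, so no fold is given between them (edgeR adjusted p = 0.474). Crhr2 entered the test only through its delta counts, so that a difference was built into its passing the filter.

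In the 3 comparisons, 1 of the 2 tested members was called in beta against alpha (26.6% of all tested genes were called), 2 in beta against delta (30.6%) and 1 in alpha against delta (24.3%). By direction, 14.8% of all tested genes were higher and 11.9% lower in beta against alpha, and 15.4% and 15.3% in beta against delta. In alpha against delta, 11% were higher and 13.3% lower. These shares are also the background for every gene list given here. With 2 genes the counts of called members say nothing beyond the values of Ucn3 and Crhr2 themselves.

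**Figure D3:**
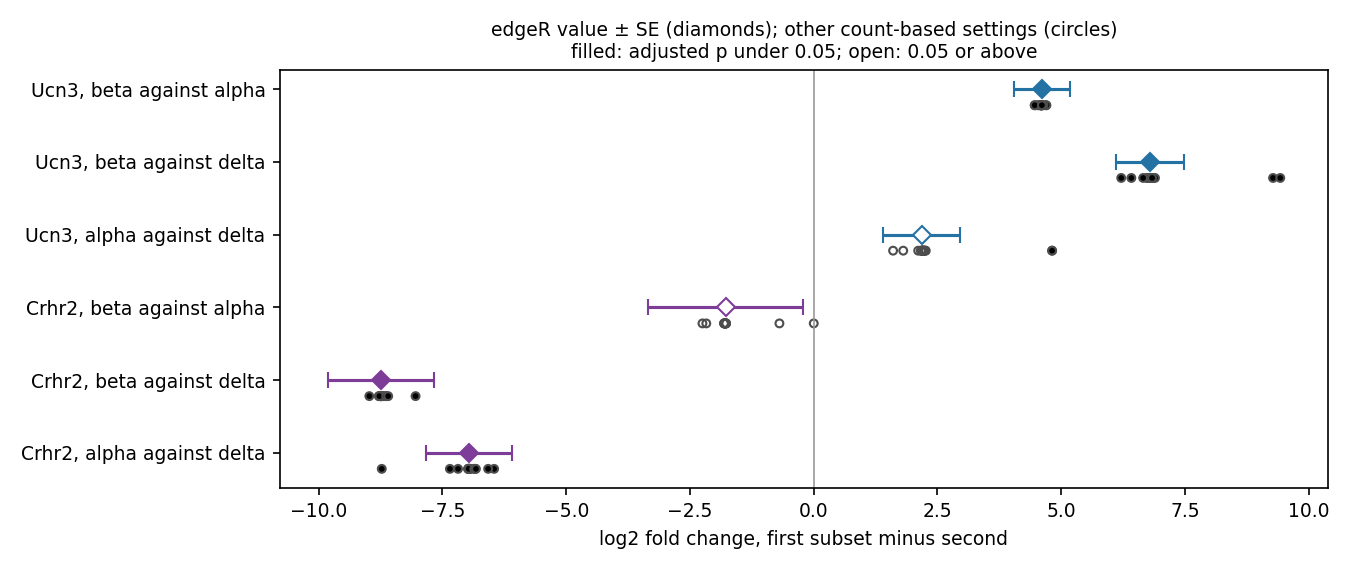
Log2 fold changes of Ucn3 and Crhr2 between subsets. Diamonds are edgeR values ± SE, circles are the other count-based settings, and filled symbols passed an adjusted p of 0.05. Ucn3 in alpha against delta had an open diamond at 2.19 and passed only in the settings near 4.82, which leave out delta replicate 3, and Crhr2 in beta against alpha passed in none.

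Crhr2 was nonetheless a rare RNA. It had 1.58, 1.42 and 2.69 TPM in the delta-enriched libraries, a mean of 1.90 ± 0.692, and had rank 9427 of 15384 protein-coding genes, so that 61.3% of them lay above it. Ucn3 in beta, at 83.4 TPM, was far above its receptor in delta. Sst, the somatostatin gene, was at 15380 TPM in delta.

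The low level of Crhr2 outside delta was set beside the 7 delta cell markers. The alpha-enriched libraries held 0.567% of the delta level of Crhr2, 0.219% of that of Sst, 0.72% of that of the delta transcription factor Hhex and 0.384% of that of the ghrelin receptor gene Ghsr. In beta these were 0%, 0.00911%, 0.0271% and 0.0378%. Other genes on the list were less particular to delta. Rbp4, a retinol carrier, was at 14.5% in alpha and 0.338% in beta, and the fatty acid receptor gene Ffar4 at 31.6% and 1.29%. Pdx1 was at 14.5% in alpha and at 186% in beta, above its delta level. Casr, the calcium-sensing receptor gene, was at 43.8% in alpha and 62.4% in beta. Beta against delta gave 6 of the 7 as lower and 1, Pdx1, as higher, and alpha against delta gave all 7 as lower. In beta against alpha, 2 were higher and 3 lower.

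Crhr2 has 9 annotated transcripts of 425 to 2924 bases, of which 5 are protein coding, 3 retain an intron and 1 is a target of nonsense-mediated decay. Their starts fall into 2 main groups. Crhr2-205, Crhr2-201, Crhr2-208 and Crhr2-204 start within 175 bases of each other at the upstream end, where the printed promoter lies, and Crhr2-202, Crhr2-203, Crhr2-209 and Crhr2-206 start 15031 to 15245 bases downstream. The mean transcript length that RSEM assigned to Crhr2 was 2144, 1896 and 1867 bases in delta replicates 1, 2 and 3. The coding transcripts of the upstream group are 2695, 2041 and 1263 bases long, and those of the downstream group 1440 and 1443. The gene tables give no share for single transcripts. The single alpha count was assigned a length of 2924 bases, the length of the retained-intron transcript Crhr2-205.

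**Figure D4:**
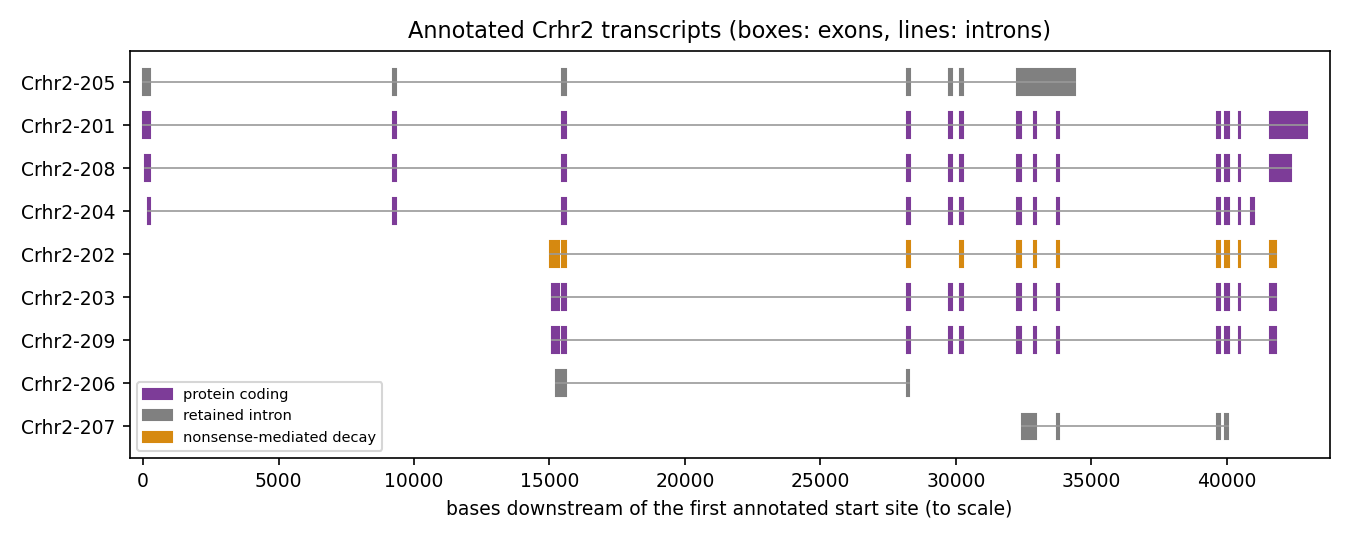
The 9 annotated Crhr2 transcripts, drawn to scale as bases downstream of the first annotated start site, with exons as boxes, introns as lines and the transcript type as colour. One group starts at 0 to 175 bases and another at 15031 to 15245 bases, and Crhr2-207 starts at 32443.

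Crhr1 (ENSMUSG00000018634, chromosome 11, 104132855 to 104175523) had 2, 3 and 0 counts in the beta-enriched libraries and 0 in all others. The beta levels were 0.257, 0.514 and 0 CPM, or 0.06, 0.09 and 0 TPM. It was not tested, and without the filter on low counts its edgeR adjusted p was 0.282 against alpha and 0.255 against delta. At this depth no difference was detectable. Crhbp (ENSMUSG00000021680, chromosome 13, 95431371 to 95444924), whose protein binds CRH and keeps it from its receptors, had 0 counts in all 9 libraries.

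Crhr2 was next placed among 15 secretin family receptor genes, of which 6 were tested and 3 (Glp2r, Sctr and Ghrhr) had no count anywhere. In delta the mean TPM was 12.1 ± 2.24 for Glp1r, 3.77 ± 0.720 for Gipr, 1.90 ± 0.692 for Crhr2, 1.83 ± 0.708 for Gcgr and 1.27 ± 0.225 for Vipr1. Crhr2 thus had rank 3 in delta, with a range of 1.42 to 2.69 TPM that overlapped the 1.33 to 2.64 TPM of Gcgr. In alpha it had rank 10, and in beta it had no count.

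The family differed in its pattern over the subsets. In beta against alpha, 4 of the 6 tested genes were higher and 1 lower (median log2 fold change 2.57). In beta against delta, 4 were higher and 1, Crhr2, was lower (median 1.7), and in alpha against delta 1 was higher and 4 were lower (median -2.09). Glp1r was highest in beta, at 99.8 ± 20.4 TPM, with log2 fold changes of 4.41 over alpha and 2.87 over delta. Gcgr, the glucagon receptor gene, was also highest in beta, by 4.23 and 1.59. Gipr, the receptor of the gut hormone GIP, was higher in beta by 1.45 and 1.82 and was not called between alpha and delta (0.365, edgeR adjusted p = 0.149).

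Vipr1, a receptor of vasoactive intestinal peptide, was highest in alpha at 11.4 ± 2.40 TPM. It was higher in alpha than in delta by 2.72 and in beta than in delta by 2.23. Its difference between beta and alpha, -0.48, passed the test (edgeR adjusted p = 0.0309) and was lost without alpha replicate 1, alpha replicate 2, beta replicate 1 or beta replicate 3. Among the 6 tested genes of the family, Crhr2 was the one with its highest level in delta. It passed the filter only through its delta counts, so this is in part built in. Some untested genes of the family, with few counts, also had their highest mean CPM in delta.

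**Figure D5:**
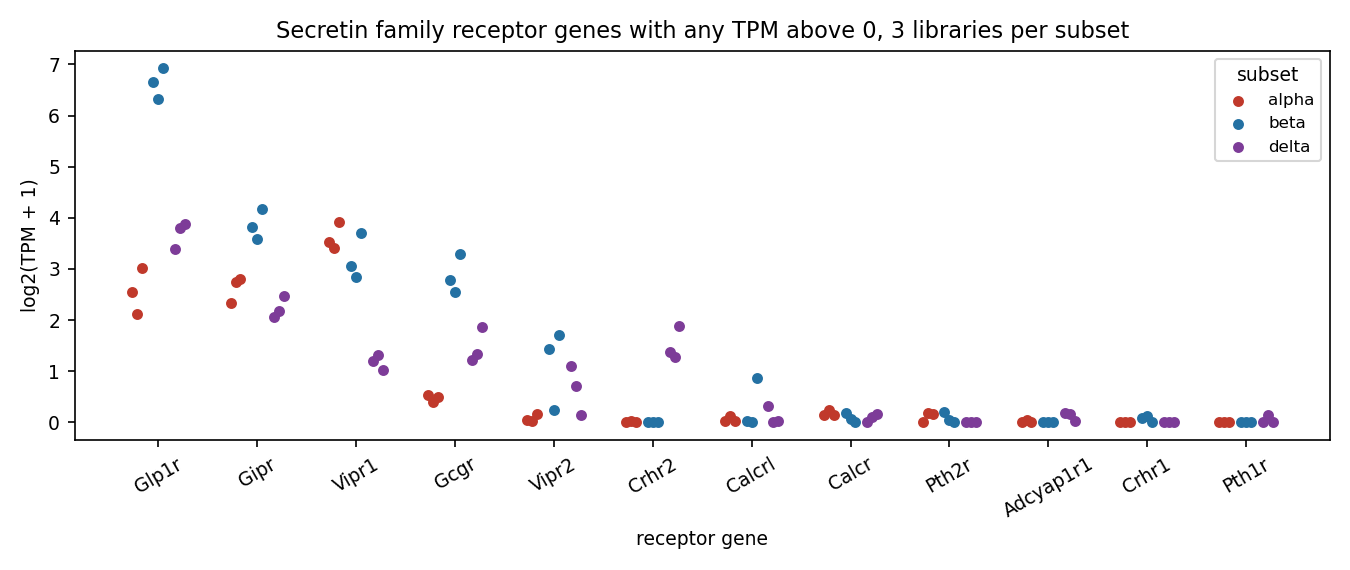
Secretin family receptor genes with any TPM above 0, as log2(TPM + 1) in each of the 3 libraries of the alpha-, beta- and delta-enriched subsets. Crhr2 was at 1.42 to 2.69 TPM in delta and at most 0.02 elsewhere, and Glp1r, Gipr and Gcgr were highest in beta.

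Genes of receptor coupling and desensitisation moved in both directions. Of 30 genes for G proteins, adenylyl cyclases, cyclic AMP effectors, arrestins, receptor kinases and a receptor accessory protein, 29 were tested. In beta against alpha, 10 were higher and 7 lower (median 0.0645), in beta against delta 10 and 9 (median 0.16), and in alpha against delta 5 and 6 (median 0.00238). Without beta replicate 2 and delta replicate 3 together, 6 were higher in beta than in delta. Adcy8, a calcium-stimulated adenylyl cyclase, shared the delta pattern of Crhr2. It had 39.6 ± 5.01 CPM in delta against 0.757 ± 0.689 in alpha and 0.613 ± 0.5 in beta. Its log2 fold change was -5.98 in beta against delta (edgeR adjusted p = 1.51e-08) and -5.74 in alpha against delta (edgeR adjusted p = 1.83e-08).

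Gnas, which encodes the stimulatory G protein alpha subunit, was lowest in beta. It stood at 3002 ± 160 CPM in alpha, 1568 ± 34 in delta and 471.5 ± 24.1 in beta, and fell by 2.67 on the log2 scale in beta against alpha (edgeR adjusted p = 6.6e-13). Grk5, a kinase that desensitises receptors, was highest in beta, at 112.8 ± 4.76 CPM against 34 ± 2.65 in alpha and 10.2 ± 2.46 in delta. Prkar2b, a regulatory subunit of protein kinase A, was higher in beta by 2.06 over alpha and 1.46 over delta.

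Urocortin 3 is made as a precursor, so the genes of prohormone processing were examined. They are 7 enzyme genes and 2 partners of the convertases, Pcsk1n, an inhibitor of PC1/3, and Scg5, a chaperone of PC2, and all 9 were tested. In beta against alpha, 2 were higher and 5 lower (median -0.30), in beta against delta 2 and 1 (median -0.06), and in alpha against delta 5 and 1 (median 0.43). The gene lower in beta than in delta was Pam, the amidating enzyme (-0.31). That count of 1 became 0 without beta replicate 1, beta replicate 3 or delta replicate 3, and 2 without delta replicate 1, with DESeq2 or with no filter on low counts. The 5 higher in alpha than in delta became 3 without alpha replicate 1 or beta replicate 2. Pcsk1, the prohormone convertase PC1/3, followed Ucn3 in being highest in beta, at 829 ± 105.5 CPM against 108 ± 27.9 in alpha and 77.6 ± 9.29 in delta. Its log2 fold changes were 2.94 over alpha and 3.42 over delta. Cpe, which trims basic residues, was lower in delta, by 0.90 below beta and 0.97 below alpha. Pcsk6 was lower in alpha than in beta (1.08) and delta (-1.18), and Pcsk5 was seen almost only in alpha, at 3.57 ± 0.665 CPM.

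Somatostatin and its receptors lie downstream of urocortin 3 in the islet. Of 6 genes, 4 were tested: 1 was higher and 3 lower in beta against alpha (median -4.88), 0 and 3 in beta against delta (median -6.58), and 1 and 3 in alpha against delta (median -2.51). Without beta replicate 2 and delta replicate 3 together, 1 was lower in beta against alpha. Without delta replicate 2, or with the replicate number as a block, 1 was higher in beta against delta. Sst was at 17220 ± 3226 CPM in delta. Sstr3 was the most abundant of the receptor genes in each subset, at 12.3 TPM in beta (98.2 ± 6.01 CPM), 6.56 in alpha (50.3 ± 1.82 CPM) and 9.38 in delta (81.4 ± 10.6 CPM). Sstr2 was higher in alpha, at 11.5 ± 1 CPM, than in delta, at 0.859 ± 0.605. Sstr1 had its own highest level in delta, at 12.3 ± 2.32 CPM and 3.48 TPM, and had 0 counts in beta.

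Outside the islet, CRH is known for the stress axis. Of 11 genes of that axis and of glucocorticoid response, 6 were tested, and 1 was higher and 2 lower in beta against alpha (median -0.21), 1 and 2 in beta against delta (median -0.24), and 1 and 0 in alpha against delta (median 0.18). The last 0 became 1 without delta replicate 1, with no filter on low counts or at 10 CPM in 3 libraries. Avpr1b, the vasopressin receptor that acts beside CRH on pituitary cells, was at 93.6 ± 15.6 CPM in alpha, 7.63 ± 4.05 in delta and 0.228 ± 0.262 in beta. Its log2 fold change was -8.44 in beta against alpha (edgeR adjusted p = 6.09e-08). Nr3c2, the mineralocorticoid receptor gene, was lower in beta, with log2 fold changes of -0.79 against alpha and -0.69 against delta. Tsc22d3, a glucocorticoid target, was higher in beta by 0.78 and 0.92. The first of these calls was lost without alpha replicate 2, alpha replicate 3, beta replicate 1 or beta replicate 2, and both were lost without beta replicate 2 and delta replicate 3 together. Nr3c1, the glucocorticoid receptor gene, was called in no comparison, at 219 ± 17.9, 207 ± 9.70 and 189 ± 17.2 CPM in alpha, beta and delta.

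The genes most like Ucn3 and Crhr2 were found by the Pearson correlation of log2(CPM + 1) over the 9 libraries, among 12530 protein-coding genes with a mean of at least 1 CPM. The libraries fall into 3 subsets, so such a value mostly ranks the subset pattern, and it carries no p. The 5 nearest to Ucn3 were Aqp4 (r = 0.992), Prss53 (0.991), Dgkg (0.991), Gsdma (0.991) and Galr1 (0.991). Each was highest in beta and lowest in delta. Aqp4, a water channel gene, was at 44.3 ± 4.13 CPM in beta, 8.02 ± 1.36 in alpha and 4.35 ± 2.10 in delta. Galr1, a galanin receptor gene, was at 58.7 ± 0.691, 6.13 ± 1.31 and 1.20 ± 2.08 in the same order.

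The 5 nearest to Crhr2 were Deup1 (r = 0.998), St6gal2 (0.997), Myo7b (0.995), Spock3 (0.994) and Tgif1 (0.994). All had their highest level in delta and at most 0.49 CPM in both other subsets. Spock3, a proteoglycan gene, was the most abundant of them in CPM, at 61.4 ± 9.27 in delta against 0.118 ± 0.114 in alpha. Deup1 had 4.08 ± 1.33 CPM in delta and no count elsewhere.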

How the data were processed

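RNA was primed with random primers and made into strand-specific libraries with ribosomal RNA depletion, per the labels' protocols. The tools named were RSEM, STAR 2.5.2b, R 3.5.1 and DESeq2 1.22.1, with the build GRCm38.p6, per the submitters' processing notes. Whether counting used the strand is not given in these sources. The authors deposited an RSEM table per library with the expected count and TPM of 55536 genes, per the file headers. The RSEM length column of these deposited tables gave the mean transcript length of Crhr2, and the effective length served to check the normalised table. Expected counts were fractional in 6.94% to 8.66% of genes per library, since RSEM shares reads between matches. The deposited normalised table, a signal for 17993 genes, equalled the rounded count divided by a size factor and a relative effective length in all 8190 genes with over 50 counts, within a relative tolerance of 1e-06. Among the members it held Ucn3 and Crhr2.

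Expected counts were rounded, filtered with filterByExpr (15896 genes) and scaled by TMM. All 9 libraries were fitted in edgeR 4.0.16 under R 4.3.3 with a robust quasi-likelihood model and 1 coefficient per subset. Tests were two-sided, with Benjamini-Hochberg adjustment over all genes at 0.05, and a gene was called when it passed. Fitted log2 fold changes are the first subset minus the second. The SE given with them is the absolute log2 fold change divided by the square root of the F statistic of its test. Genes matched the GENCODE M21 annotation. Motif matches were counted on both strands of 32851 RefSeq promoters. Poisson and binomial intervals at 95% and the limit of 3 counts cover counting error only. They use counts pooled over the libraries of a subset and leave out the spread between libraries. Reads were also not collapsed by molecular identifiers here. Where counts were 1 to 3, a ratio with its interval is given.

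The 7 members, and the lists of receptor, coupling, processing, somatostatin, stress and cell type marker genes, were chosen with earlier results of these data known. Genes were named by a rule: all members, up to 4 called genes with the smallest p from each list other than markers of other cells, the hormones Gcg, Ins1, Ins2 and Sst, and the 5 genes most like each member with a mean of at least 1 CPM. Markers of the alpha cell and of other cells are given as sums, as counts of called genes, or as both. Outside the rule, Slc2a2, Mafa, Slc30a8, Hhex, Ghsr, Nr3c1, Pam, Pcsk1n, Scg5, Snap25, Tubb3 and the marker and receptor genes listed at 0 were chosen after their values were seen. Alternatives were DESeq2 1.42.0, limma 3.58.1 on log2 TPM, other scalings and filters, a replicate block and the removal of single libraries.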

Additional observations from a re-analysis of the deposited data

How the results depend on the processing

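The calls for Ucn3 in beta against alpha and beta against delta, and for Crhr2 against delta, held in all 21 or 20 alternatives that gave a value. Ucn3 ran from 4.19 to 4.70 (highest adjusted p 0.0362) and from 5.77 to 9.43 (0.00494) on the log2 scale. Crhr2 in beta against delta ran from -8.98 to -1.51, and in alpha against delta from -8.73 to -1.50. The smallest sizes came from limma on log2(TPM + 1), a scale that understates low genes. Sizes fitted with no count in 1 of the subsets, as in beta, are not measured ones. Crhr2 in beta against alpha passed in none of 19 (0.41 the lowest adjusted p). Ucn3 in alpha against delta, at 2.19, passed with limma on log2(TPM + 1) at 1.58 (adjusted p = 0.00195), without delta replicate 3, and without beta replicate 2 and delta replicate 3 together at 4.82 (adjusted p = 7.08e-06). Leaving out single libraries gave 1.60 to 4.82 for it, and the highest adjusted p over its alternatives was 0.201. Crhr2 could not be tested at 10 CPM in 3 libraries, or in beta against alpha with those subsets alone.

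Counts of called genes over all tested fell with limma, where fewer passed: on log2(TPM + 1) to 1765 (beta and alpha), 2446 (beta and delta) and 1807 (alpha and delta), and on log2(TPM + 0.1) to 1819, 2480 and 1782, against 4231, 4869 and 3868 in edgeR. The cause was not tested. Of 756 counts of called list genes under alternatives, 690 lay within 1.5 times the edgeR count and 66 did not, 32 of these with limma.

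With the replicate number as a block, Ucn3 stood at 4.61, 6.84 and 2.23 in beta against alpha, beta against delta and alpha against delta. Crhr2 stood at -8.74 in beta against delta and -6.93 in alpha against delta, and no call on either gene changed. The block called 4625, 5241 and 4294 genes. Same-numbered libraries correlated at 0.00085 to 0.112 in their deviations from the subset means, and pairs with other numbers at -0.102 to 0.021. Of the 9 same-numbered pairs, 8 were the best match for both libraries. Only alpha replicate 3 with beta replicate 3, at 0.112, passed the limit of 0.1 used here. The labels state no pairing, so the main fit left the numbers out. Whether same-numbered libraries share an origin was not tested.

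A total of 5663141 to 9529920 expected counts per library limits what can be said of Ucn2 and Crhr1, with 12 and 5 counts over all libraries. A gene with a count of 0 in a subset may still have had a level of up to about 0.15 CPM there.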
